A study of Mus musculus with 2 samples.

Results

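The 7 genes described here encode proteins of central nervous system myelin and the regulator that switches their transcription on. They are Mbp and Mobp (compact myelin), Mag, Mog, Cnp and Cldn11 (non-compact myelin or the myelin surface) and the transcription factor gene Myrf. They were taken by symbol from a table of 15953 genes, and each of the 7 was listed there. The table compared mouse neural stem cells grown in suspension culture, with 1 library labelled Hikeshi cKO (conditional knockout) and 1 labelled wild type. Hikeshi is an import carrier of HSP70 chaperones, and the study asks how its loss affects the division and differentiation of these stem cells. The sources used here do not state the Cre driver, the strain or the age of the mice. Total RNA of whole cultures was sequenced, so fewer cells of a type and less RNA per cell cannot be told apart in any value below.

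Myelin is the stack of membrane that oligodendrocytes wrap around axons. In compact myelin the basic proteins Mbp and Mobp hold the cytoplasmic faces of the membrane together, while the non-compact parts retain cytoplasm, and there Cnp and Mag are found. Myrf is made as a protein of the endoplasmic reticulum membrane. It cuts itself, and the released part enters the nucleus and activates myelin genes in cells leaving the precursor stage. Neural stem cells can give rise to oligodendrocytes as well as to astrocytes and neurons.

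The libraries held 18912683 reads (Hikeshi cKO) and 18839079 reads (wild type). Hikeshi itself had 640 reads in the Hikeshi cKO library and 718 in the wild-type library, a ratio of 0.888. Counts over a whole gene need not show a deletion of part of it, so this value does not check the labels. Each of 10 stem cell markers was detected in both libraries, with Sox2 at 404 CPM (reads per 1000000 reads counted) in the Hikeshi cKO library and 407 CPM in the wild-type library. Nes stood at 780 CPM in the Hikeshi cKO library and 569 CPM in the wild-type library. The median difference of these markers in log2(CPM + 1), Hikeshi cKO over wild type, was -0.16, and the 1 at least 2-fold lower was Hes5, with a ratio of 0.390, while Prom1 (0.520), Slc1a3 (0.650) and Fabp7 (0.661) were lower by less. Summed reads of 4 Y-linked genes (Eif2s3y, Ddx3y, Kdm5d and Uty) were 2931 in the Hikeshi cKO library and 1 in the wild-type library. The labelled genotype therefore cannot be told apart from this difference. With 1 library per group there is no replicate spread, so no p-value is given. Each ratio carries a 95% interval for counting error between these libraries only.

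Each of the 7 genes had fewer reads in the Hikeshi cKO library than in the wild-type library. Genes under 1 CPM in both libraries were left out of counts. That left 5 of the 7, and all 5 were at least 2-fold lower in the Hikeshi cKO library. Counts of genes past 2-fold are made here and below after adding 1 CPM to each value, while single folds are ratios of CPM without it. Of 12618 genes kept, 3.85% were that much lower and 1.25% that much higher. Every count of genes past 2-fold below is to be read beside these shares. Mbp, Cnp, Cldn11 and Myrf passed the filter in both libraries, whereas Mag passed it only through the wild-type library. So did Enpp6, Gjb6, Gpr37, Cldn10 and Tmem88b among the list genes counted as lower below. The direction of a gene kept through 1 library only is set by the filter. Mobp and Mog stayed under it in both. The median log2 difference of the 5 was -2.44, against -0.02 over all genes kept, on a scale of log2(CPM + 1), Hikeshi cKO over wild type.

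**Figure D1:**
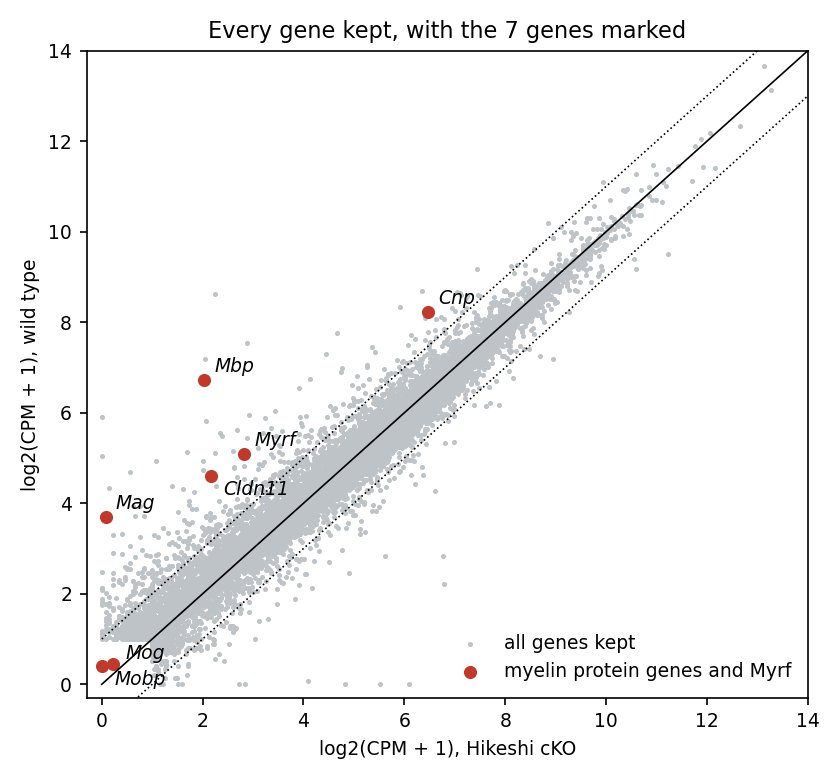
Each grey point is 1 of the 12618 genes kept, with log2(CPM + 1) in the Hikeshi cKO library on the horizontal axis and in the wild-type library on the vertical axis. Red points mark the 7 genes, the solid line equal levels and the dotted lines a 2-fold difference on this scale. Mbp, Mag, Cldn11, Myrf and Cnp lie above the upper dotted line, and Mog and Mobp lie near the origin.

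Among the compact myelin genes, Mbp (Entrez 17196, chromosome 18, 82475091 to 82585637, GRCm38.p6) encodes the basic protein that seals the cytoplasmic membrane faces. Mbp had 58 reads in the Hikeshi cKO library and 1974 in the wild-type library, or 3.07 and 105 CPM. It was 34.2-fold lower in the Hikeshi cKO library (95% counting interval 26.3 to 45.2), and its log2 difference of -4.70 was the 5th lowest of the 12618 genes kept. Mobp (Entrez 17433, chromosome 9, 120149742 to 120181488) encodes a small basic protein of the same compartment. It had 0 reads in the Hikeshi cKO library and 6 in the wild-type library. Set against a floor of 3 reads (0.159 CPM) Mobp was 2.01-fold lower, a value that depends on the chosen floor. From the reads themselves the lower 95% counting limit of the fold was 1.18. A pair of genes from the same compartment thus stood far apart in level, and only Mbp was well sampled.

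The non-compact myelin gene Mag (Entrez 17136, chromosome 7, 30899175 to 30914922) encodes a sialic acid-binding adhesion protein that faces the axon. Mag had 1 read in the Hikeshi cKO library and 225 in the wild-type library, or 0.0529 and 11.9 CPM. The ratio corresponds to a 226-fold lower level, but with 1 read its interval ran from 40.1 to 8961. Mag lies on the same chromosome as Hikeshi, 59.0 Mb away. Mog (Entrez 17441, chromosome 17, 37010740 to 37023398) encodes a glycoprotein of the outermost myelin surface and is a late gene of oligodendrocyte maturation. It had 3 reads in the Hikeshi cKO library and 7 in the wild-type library, a ratio of 0.427 (0.0712 to 1.87), so no difference was detectable at this depth.

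Cnp (Entrez 12799, chromosome 11, 100574909 to 100591875) encodes an enzyme that binds the membrane and maintains the cytoplasmic channels of the sheath. Cnp was the most abundant of the 7 in both libraries, with 1660 reads in the Hikeshi cKO library and 5590 in the wild-type library, or 87.8 and 297 CPM. It was 3.38-fold lower in the Hikeshi cKO library (3.20 to 3.57), the smallest fold among the 5 kept. Dnajc7 overlaps Cnp in the annotation and had 2143 reads in the Hikeshi cKO library and 2208 in the wild-type library. The sources used here do not state whether counting used strand, so reads of the shared part could belong to either gene.

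Cldn11 (Entrez 18417, chromosome 3, 31149920 to 31164326) encodes the claudin that forms the tight junctions between myelin wraps. It had 66 reads in the Hikeshi cKO library and 439 in the wild-type library, or 3.49 and 23.3 CPM, and was 6.68-fold lower (5.15 to 8.79). Myrf (Entrez 225908, chromosome 19, 10208271 to 10240777) had 115 reads in the Hikeshi cKO library and 620 in the wild-type library, or 6.08 and 32.9 CPM. It was 5.41-fold lower (4.43 to 6.66). The intervals of Cldn11 and Myrf overlap each other, and both lie between Cnp and Mbp. From the lowest log2 difference upward, Mag ranked 12, Cldn11 42, Myrf 51 and Cnp 113 of the 12618 genes kept.

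**Figure D2:**
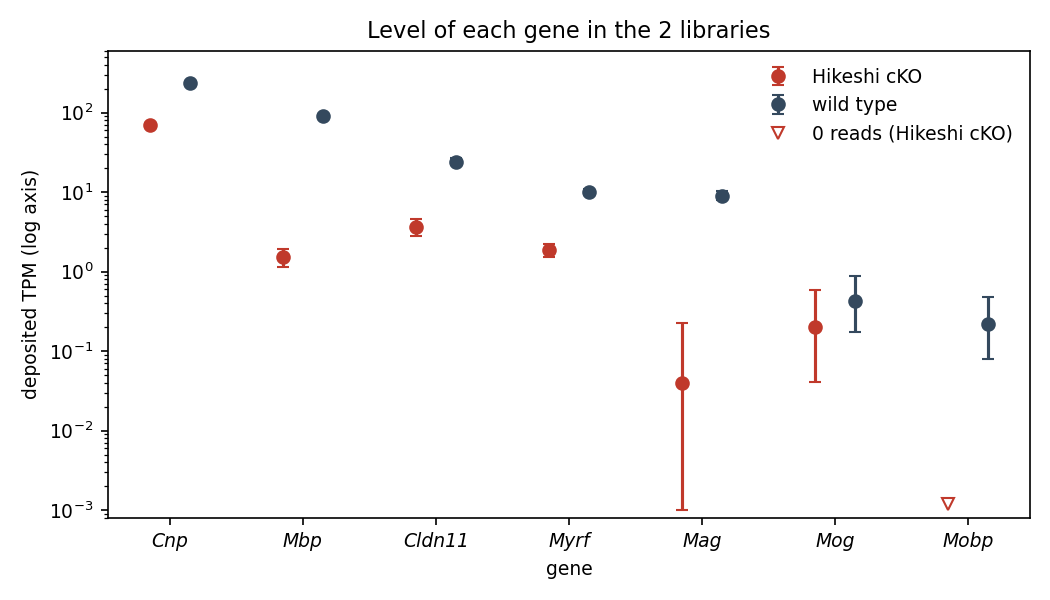
Deposited TPM (transcripts per 1000000, which allows for gene length) of each gene on a log axis, with the Hikeshi cKO library in red and the wild-type library in dark blue. Bars are 95% Poisson intervals of the reads carried over to TPM, and the open triangle marks Mobp at 0 reads. Among the 6 genes with a bar in each library, Mog is the one whose bars overlap.

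By deposited TPM, the order of the levels also differed between the libraries. In the Hikeshi cKO library the deposited TPM was 70.79 for Cnp, 3.63 for Cldn11 (2.81 to 4.62), 1.87 for Myrf (1.54 to 2.24) and 1.51 for Mbp (1.15 to 1.95). Myrf and Mbp do not differ beyond counting error there. Below them Mog stood at 0.20 TPM (0.0412 to 0.584) and Mag at 0.04 TPM (0.00101 to 0.223), again with overlapping intervals, and Mobp was listed at 0. In the wild-type library the order was Cnp at 234 TPM, Mbp at 89.40, Cldn11 at 24.19, Myrf at 10.02 (9.25 to 10.8), Mag at 9.02 (7.88 to 10.3), Mog at 0.43 (0.173 to 0.886) and Mobp at 0.22 TPM (0.0807 to 0.479). The intervals of Myrf and Mag overlap in that library, as do those of Mog and Mobp. Mbp was thus the fourth in the Hikeshi cKO library and the second in the wild-type library. Over all 7 genes the TPM summed to 78.0 in the Hikeshi cKO library and 367 in the wild-type library. Cnp made up 90.7% of that sum in the Hikeshi cKO library and 63.7% in the wild-type library, and Mbp 1.93% in the Hikeshi cKO library and 24.4% in the wild-type library.

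The genes did not differ by a common factor. A ratio of 2 genes within a library does not depend on how the libraries are scaled. There were 3.49 reads of Mbp for every 100 reads of Cnp in the Hikeshi cKO library and 35.3 in the wild-type library, 10.1-fold fewer (7.73 to 13.4). Per 100 reads of Cnp, Myrf had 6.93 reads in the Hikeshi cKO library and 11.1 in the wild-type library, 1.60-fold fewer (1.30 to 1.99). Relative to Myrf, Mbp was 6.31-fold lower (4.50 to 8.92) and Mag 41.7-fold lower (7.23 to 1670) in the Hikeshi cKO library. For Cldn11 relative to Myrf the fold was 1.23 (0.880 to 1.74), so these did not separate at this depth. Mag relative to Mbp was 6.61-fold lower with a wide interval (1.13 to 267).

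Sox10, the lineage factor that activates Myrf and several myelin genes with it, had 60 reads in the Hikeshi cKO library and 1046 in the wild-type library and was 17.5-fold lower (13.5 to 23.1). Per 100 reads of Sox10, Mbp had 96.7 reads in the Hikeshi cKO library and 189 in the wild-type library. Myrf had 192 reads per 100 of Sox10 in the Hikeshi cKO library and 59.3 in the wild-type library, and Cnp had 2767 in the Hikeshi cKO library and 534 in the wild-type library. Relative to Sox10, then, Mbp and Mag were lower and Myrf, Cldn11 and Cnp higher in the Hikeshi cKO library. The ratios were 0.512 (0.348 to 0.754) for Mbp and 0.0775 (0.00192 to 0.454) for Mag, which had 1 read in the Hikeshi cKO library. They were 3.23 (2.31 to 4.57) for Myrf, 2.62 (1.78 to 3.85) for Cldn11 and 5.18 (3.96 to 6.87) for Cnp. Reads shared with Dnajc7 remain possible for Cnp.

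**Figure D3:**
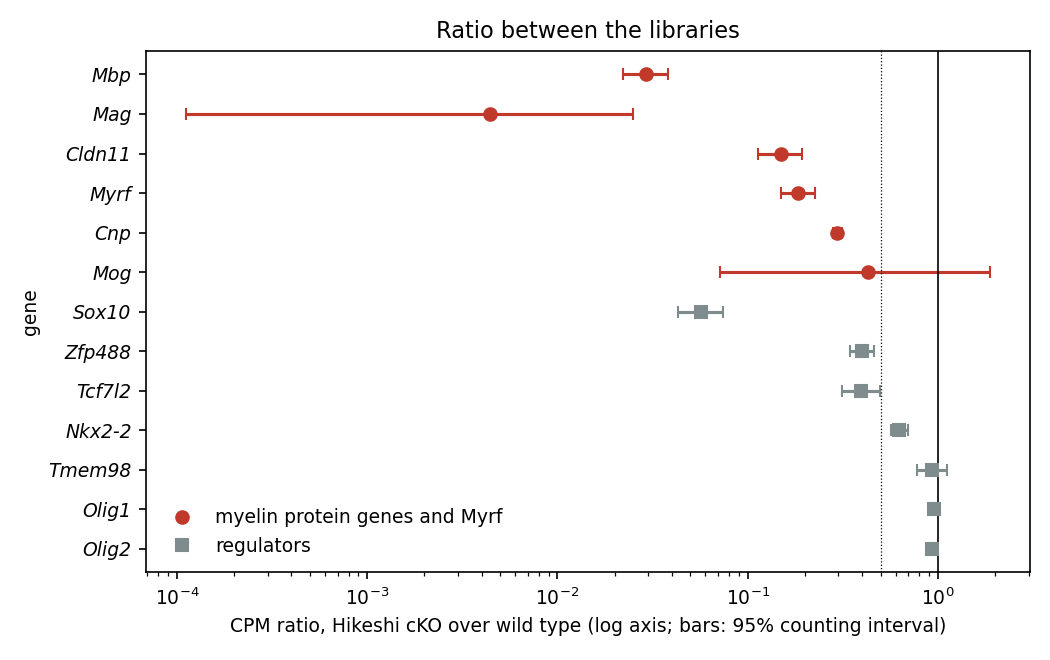
Ratio of CPM, Hikeshi cKO over wild type, on a log axis with 95% counting intervals, for 6 of the 7 genes (red circles; Mobp at 0 reads has no ratio) and 7 regulators (grey squares). The solid line marks equal levels and the dotted line a 2-fold lower level. Mbp at 0.0293 and Sox10 at 0.0571 lie far to the left, while Olig1, Olig2 and Tmem98 lie close to 1.

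Mbp also differed in the length behind its values. Reads divided by the deposited FPKM (fragments per kilobase and 1000000 fragments) and by the library total give the transcript length that the authors' scaling implies. For Mbp this implied length was 3298 nt in the Hikeshi cKO library and 1895 nt in the wild-type library, and rounding of the deposited values allows 3280 to 3315 nt in the Hikeshi cKO library. The ratio of 1.74 was the 5th highest among 12552 genes with an implied length in both libraries, of which 0.0558% were at least 1.5-fold longer and 0.0717% at least 1.5-fold shorter in the Hikeshi cKO library. The median ratio of those genes was 1.004, and 95% of them lay between 0.938 and 1.07. The other members with enough reads were close to 1, with ratios of 0.983 for Cnp, 1.01 for Cldn11 and 0.996 for Myrf.

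The Mbp gene holds 2 families of transcripts. Golli transcripts start far upstream and are made in several cell types, and the classic transcripts that encode the myelin protein start downstream. In the GENCODE annotation 4 of 16 Mbp transcripts start within 0.224 kb of the first start and measure 433 to 4797 nt. The other 12 start 79.3 to 88.1 kb downstream and measure 354 to 2070 nt. The implied length in the Hikeshi cKO library was longer than every transcript of the downstream group. That in the wild-type library lay within the ranges of both groups, so it does not place the wild-type reads in either. Implied lengths run short of annotated ones, as the single annotated Cldn11 transcript of 1870 nt shows, with implied lengths of 1565 nt (Hikeshi cKO) and 1557 nt (wild type). Which transcripts the reads came from was not tested. Because of the unequal lengths, Mbp was 59.2-fold lower in the Hikeshi cKO library by deposited TPM, against 34.2-fold by reads.

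**Figure D4:**
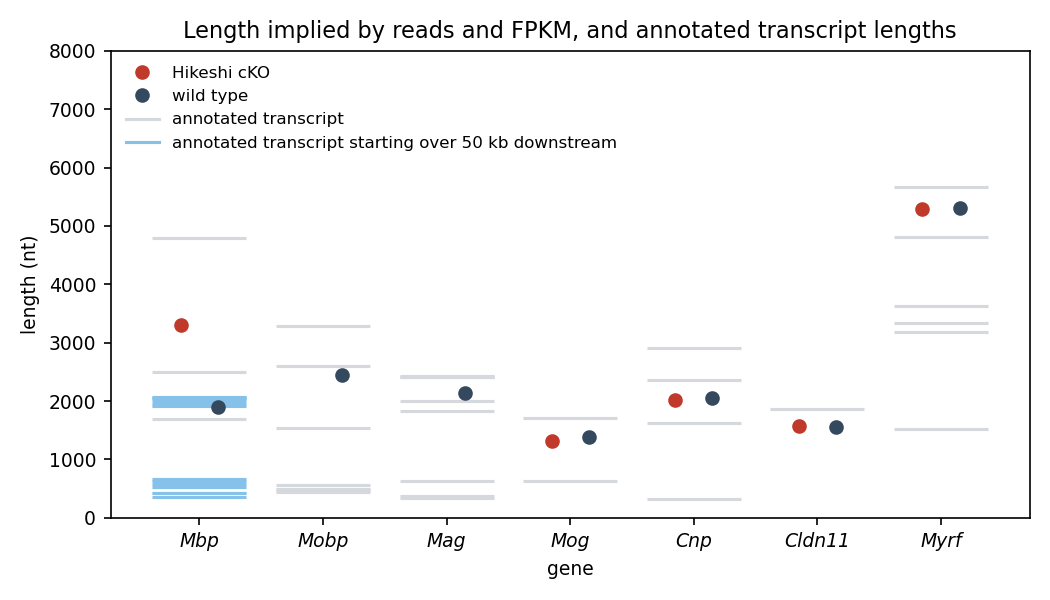
Length in nucleotides implied by reads and deposited FPKM for each gene, in the Hikeshi cKO library (red) and the wild-type library (dark blue), over the lengths of annotated transcripts (lines, blue where the transcript starts over 50 kb downstream of the first start). Mbp stands at 3298 nt in the Hikeshi cKO library and 1895 nt in the wild-type library, while Cnp, Cldn11, Mog and Myrf have nearly equal points. Mag and Mobp have a wild-type point only, since their Hikeshi cKO values are too small.

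The 7 genes lie on 7 different chromosomes, so they share no neighbourhood. Promoters of 5 of them were in the RefSeq table (GRCm38.p6, 250 bases before to 50 after the start, first window of each gene) and 4 are shown because most of these genes were low together in the Hikeshi cKO library. Mbp and Myrf were not among them. Capitals mark the letters CTGGCAC or CTGGTAC, known to be bound by MYRF, and ACAAAG or ACAATG, typical of SOX factors, on either strand. The motifs do not overlap in these windows. The Mag window (chr7:30914814-30915113, minus strand), the Cnp window (chr11:100574689-100574988, plus strand), the Cldn11 window (chr3:31149670-31149969, plus strand) and the Mobp window (chr9:120149492-120149791, plus strand) read as follows.
Mag: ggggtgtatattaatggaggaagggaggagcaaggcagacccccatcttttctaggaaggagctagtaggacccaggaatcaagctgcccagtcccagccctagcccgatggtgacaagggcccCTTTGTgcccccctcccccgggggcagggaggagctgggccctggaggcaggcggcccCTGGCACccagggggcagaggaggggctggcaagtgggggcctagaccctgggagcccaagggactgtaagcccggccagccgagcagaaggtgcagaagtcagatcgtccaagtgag
Cnp: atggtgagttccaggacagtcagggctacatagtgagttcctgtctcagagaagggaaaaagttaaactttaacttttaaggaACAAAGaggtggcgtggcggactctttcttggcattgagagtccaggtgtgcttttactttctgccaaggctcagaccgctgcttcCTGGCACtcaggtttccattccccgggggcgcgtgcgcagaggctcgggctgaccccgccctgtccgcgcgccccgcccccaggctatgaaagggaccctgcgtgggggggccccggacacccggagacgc
Cldn11: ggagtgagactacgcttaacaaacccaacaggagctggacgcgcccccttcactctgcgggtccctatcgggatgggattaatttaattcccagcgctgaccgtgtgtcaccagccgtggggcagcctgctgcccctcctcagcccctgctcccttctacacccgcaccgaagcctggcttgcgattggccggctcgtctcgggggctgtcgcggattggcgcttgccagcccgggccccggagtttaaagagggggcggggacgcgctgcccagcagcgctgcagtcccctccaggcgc
Mobp: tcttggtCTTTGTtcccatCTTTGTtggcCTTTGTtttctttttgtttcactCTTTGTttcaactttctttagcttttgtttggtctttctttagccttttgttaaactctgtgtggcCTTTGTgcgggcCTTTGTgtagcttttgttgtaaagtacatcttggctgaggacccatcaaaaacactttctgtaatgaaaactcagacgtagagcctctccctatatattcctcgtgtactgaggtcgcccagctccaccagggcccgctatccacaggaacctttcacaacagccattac

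In these windows CTGGCAC occurred once each in Mag and Cnp, starting 68 and 81 bases before the start. The Mog window, not printed, held GTACCAG, the reverse complement of CTGGTAC. A SOX word occurred once in Mag, once in Cnp and 6 times in Mobp, and Cldn11 held neither motif. Of 10102 kept genes with a window, 6.42% held the MYRF letters and 18.8% the SOX letters. Among the 368 of them at least 2-fold lower in the Hikeshi cKO library these shares were 9.24% and 19.3%, and over all 27025 genes in the table they were 7.07% and 28.8%. A match is a run of letters and no more.

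Of the regulators that act with or before Myrf 15 were kept, and 3 of these were at least 2-fold lower in the Hikeshi cKO library and 0 higher, with a median log2 difference of -0.09 (-0.02 over all genes kept, of which 3.85% were that much lower). The 3 were Sox10 (log2 difference -3.76), Zfp488 (-1.26), which promotes oligodendrocyte differentiation, and Tcf7l2 (-1.20), a WNT effector of differentiating oligodendrocytes. Zfp488 had 254 reads in the Hikeshi cKO library and 632 in the wild-type library. Regulators outside that count were not all level. Nkx6-2 had a ratio of 0.421 (0.265 to 0.653) and missed the count only through the added 1 CPM. Sox8 had a ratio of 0.619 (0.592 to 0.647) and Nkx2-2 one of 0.628 (0.569 to 0.694). The highest log2 difference in the list was 0.07. Olig1 and Olig2, the lineage factors already made by progenitors, had ratios of 0.954 (0.938 to 0.971) and 0.928 (0.907 to 0.949). Olig1 stood at 1401 CPM in the Hikeshi cKO library and 1468 CPM in the wild-type library, and Olig2 at 787 CPM in the Hikeshi cKO library and 848 CPM in the wild-type library. Tmem98, a membrane protein that binds Myrf and blocks its self-cleavage, had 232 reads in the Hikeshi cKO library and 248 in the wild-type library, a ratio of 0.932 (0.776 to 1.12).

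Of the inhibitors of myelin genes or of oligodendrocyte maturation 9 were kept, and 3 of these were at least 2-fold lower in the Hikeshi cKO library and 0 higher (median -0.54). They were Gpr17 (-6.38), a receptor made briefly by cells leaving the precursor stage, the NOTCH effector gene Hes5 (-1.31) and the receptor gene Gpr37 (-1.01). Gpr37, with 12 reads in the Hikeshi cKO library and 43 in the wild-type library, lay at the cut. The well-read Sox6 lay just short of it at -0.96, and the highest of the list was Id2 at 0.33. Gpr17 had the lowest log2 difference of all genes kept, and it overlaps Lims2, whose reads cannot be kept apart without a known strand.

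Other proteins of myelin and oligodendrocytes were split. Of 26 fixed genes 19 were kept, and 9 of these were at least 2-fold lower in the Hikeshi cKO library and 0 higher, with a median of -0.45. Bcas1, which marks early myelinating cells, had 121 reads in the Hikeshi cKO library and 3467 in the wild-type library and was 28.8-fold lower (24.0 to 34.8). Tmem88b, with 6 reads in the Hikeshi cKO library and 169 in the wild-type library, was 28.3-fold lower (12.7 to 78.1), and the tetraspanin gene Cd82 4.92-fold lower (3.28 to 7.60). The deacetylase gene Sirt2, whose protein is abundant in myelin, was 2.51-fold lower (2.40 to 2.63). Several genes of mature sheaths were scarcely read, as were Mog and Mobp. In the Hikeshi cKO library Opalin had 11 reads, Mal 10, Aspa 14, Gjb1 1 and Hapln2 0. In the wild-type library Opalin had 22 reads, Mal 14, Aspa 18, Gjb1 8 and Hapln2 1. The iron carrier gene Trf, also a marker of mature oligodendrocytes, was well read and 1.51-fold higher (1.40 to 1.63), with 1692 reads in the Hikeshi cKO library and 1119 in the wild-type library. Through Trf the 8 listed mature markers summed to 91.8 CPM in the Hikeshi cKO library and 63.1 CPM in the wild-type library.

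**Figure D5:**
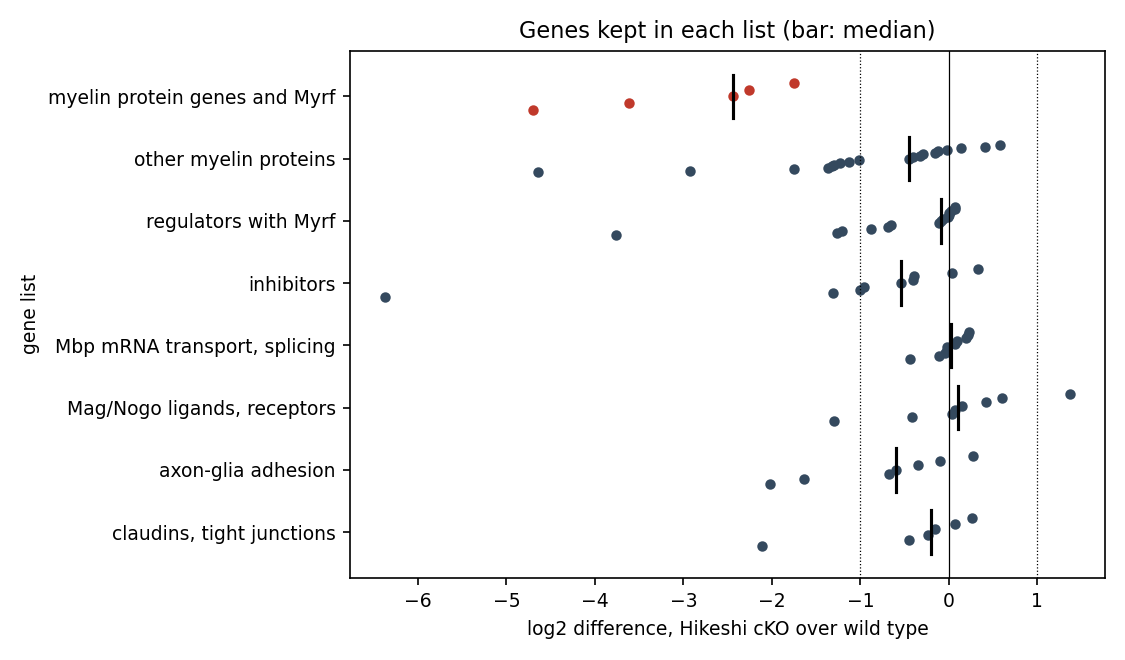
Log2 difference, Hikeshi cKO over wild type, of each gene kept, by list, with the 5 kept myelin protein genes and Myrf in red and other lists in dark blue. Black bars are medians, and dotted lines mark a 2-fold difference. The red points lie between -4.70 and -1.75, and the genes for Mbp mRNA transport and splicing all lie between -0.44 and 0.23.

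Factors that carry or splice Mbp mRNA differed little, with 0 of 10 kept genes past 2-fold in either direction and a median of 0.03. Qk, whose protein stabilises and splices myelin transcripts, was the farthest at -0.44. Hnrnpa2b1, which binds the transport signal of Mbp mRNA, stood at 0.23 and Hnrnpf at 0.21. These genes are broadly expressed.

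Ligands and receptors that act with Mag at the axon gave 1 of 8 kept genes lower and 1 higher (median 0.10). Of all genes kept, 3.85% were that much lower and 1.25% higher. Omg, another myelin ligand of the Nogo receptor, had 365 reads in the Hikeshi cKO library and 922 in the wild-type library (log2 difference -1.30). It overlaps Nf1, which had 2023 reads in the Hikeshi cKO library and 2030 in the wild-type library. Rtn4rl1, a homologue of the Nogo receptor, was 2.83-fold higher (2.30 to 3.50), with 358 reads in the Hikeshi cKO library and 126 in the wild-type library. Rtn4, which encodes Nogo, was at 0.60. Omg also counts among the other myelin proteins.

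Adhesion proteins between axon and glia had 2 of 7 kept genes at least 2-fold lower and 0 higher (median -0.60). The shares over all genes kept were 3.85% lower and 1.25% higher. Cadm3 had 188 reads in the Hikeshi cKO library and 820 in the wild-type library (log2 difference -2.02). Nfasc, whose glial form anchors the sheath beside the node, had 573 reads in the Hikeshi cKO library and 1815 in the wild-type library (-1.64), and Cadm4, the glial partner of axonal Cadm proteins, stood at -0.68. Among claudins and tight junction scaffolds, where Cldn11 was not counted, 1 of 6 kept was lower and 0 higher (median -0.20). That gene was Cldn10, with 9 reads in the Hikeshi cKO library and 101 in the wild-type library (-2.11), and Cldn12 stood at 0.26.

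Markers of other stages and cell types were read beside these genes. Of 6 markers of premyelinating oligodendrocytes all 6 were at least 2-fold lower in the Hikeshi cKO library, summing to 196 CPM there and 1057 CPM in the wild-type library. Gpr17, Bcas1, Tcf7l2 and Sirt2 among them are also counted in the lists above, and Sirt2 alone had 147 CPM in the Hikeshi cKO library and 370 CPM in the wild-type library. Enpp6, with 2 reads in the Hikeshi cKO library and 364 in the wild-type library, was kept only through the latter. Oligodendrocyte precursor markers summed to 4609 CPM in the Hikeshi cKO library and 5408 CPM in the wild-type library, with 1 of 6 lower. That was Pdgfra, at 20.9 CPM in the Hikeshi cKO library and 155 CPM in the wild-type library. Astrocyte markers moved with the myelin genes, 7 of 7 lower, summing to 1188 CPM in the Hikeshi cKO library and 2818 CPM in the wild-type library. None of the astrocyte markers was at 0, and their part in the myelin gene values was not tested. Schwann cells make Mbp and Mag too. Of their markers 6 were kept and 1 was lower, which was Sox10, and Pmp2, a lipid-binding protein of their myelin, had 1 read in the Hikeshi cKO library and 10 in the wild-type library. Neuron markers had 1 of 6 kept genes lower and 0 higher (median -0.24). That was Dcx, 10.3-fold lower, with 80 reads in the Hikeshi cKO library and 824 in the wild-type library. Microglia, fibroblast and endothelial markers had 1 gene kept each, and 0 past 2-fold with 1 CPM added.

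Among 11706 genes with at least 50 reads in the higher library, the 5 nearest to the median point of the 7 genes, by straight-line distance over log2(CPM + 1) in the 2 libraries, were Epb41l3, Chadl, C1ql1, Paqr7 and Rph3a. Epb41l3, a membrane skeleton gene, was nearest at a distance of 0.125, with 57 reads in the Hikeshi cKO library and 480 in the wild-type library. Rph3a, the fifth, had a distance of 0.505, with 39 reads in the Hikeshi cKO library and 354 in the wild-type library. With only 2 libraries such likeness says no more than that both levels were similar.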

How the data were processed

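The sources used here do not state the aligner, the counting tool, the annotation or the strand setting. The build is GRCm38.p6 in the submitters' processing notes. The authors deposited 1 table with estimated read counts, TPM, FPKM and a normalized read count signal per library, named so per the file headers. Of the deposited estimated counts 89.8% (Hikeshi cKO) and 90.0% (wild type) were whole numbers. Counts were rounded and divided by the column totals to give CPM, with a floor of 3 reads for a library at 0. Genes with 1 CPM in at least 1 library were kept, and differences are log2 of the CPM ratio after adding 1 CPM, which understates those of low genes. Ratios carry exact conditional binomial (Clopper-Pearson) 95% intervals, and ratios of 2 genes conditional odds ratio intervals. Reads are not independent molecules, so intervals cover counting error only. Implied lengths were kept where rounding moved them by at most 10%.

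The 7 genes and the 17 gene lists were chosen with earlier results of these data known, and no list was tested. All 7 genes were named, up to 3 kept genes per list with the largest differences, and any gene needed to account for a small count. Some genes that this rule names are left out of the text. Mature oligodendrocyte, precursor and Sirt2 values fall outside that rule and were chosen after their values were seen, as was the comparison with Sox10. Coordinates came from a RefSeq gene table and promoters from a RefSeq table of the same build, transcripts from GENCODE. The interval and fold rule were tested on simulated Poisson counts, with known folds and interval coverage checked only in well-read genes. Such a test covers neither genes as low as Mag, Mog and Mobp nor any spread beyond counting error. Python 3.11.15 with scipy 1.17.1, and edgeR 4.0.16 and DESeq2 1.42.0 in R 4.3.3 for scaling alternatives, were used.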

Additional observations from a re-analysis of the deposited data

How the results depend on the processing

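The 9 alternatives changed the added CPM, the scaling, the kind of deposited value or the filter. Mbp, Mag, Cldn11, Myrf and Cnp were at least 2-fold lower in the Hikeshi cKO library under all 9, with log2 differences of -5.17 to -3.77 (Mbp), -5.33 to -1.75 (Mag), -2.65 to -1.74 (Cldn11), -2.39 to -1.74 (Myrf) and -1.75 to -1.70 (Cnp). The changes of filter cannot alter the value of a single gene. The deposited normalized read count, rescaled to its total, repeated the main values of these 5 genes. These alternatives therefore add no support for single genes. Adding 5 CPM in place of 1 moved the median of those 5 to -1.75. Over all genes it left 193 genes 2-fold lower and 73 higher, in place of 486 and 158. It also left 5 other myelin proteins and 0 claudins or scaffolds 2-fold lower. The count of inhibitors fell from 3 to 2 with 5 CPM added, the filter at 5 CPM, edgeR or DESeq2 scaling, and deposited TPM or FPKM. Deposited FPKM gave 298 genes lower and 99 higher. Adding 0.25 CPM moved the median of other myelin proteins to -0.77. A larger added value shrinks low genes by construction. For FPKM the added 1 and the filter at 1 were in FPKM units, and 11779 genes were kept in place of 12618. How much of the lower FPKM counts comes from this was not tested. Depth limits Mog and Mobp, and Mag in the Hikeshi cKO library. No paired analysis was possible because each group has 1 library.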

Other observations

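The nearest listed gene on each side of the 7 genes was read as well. Of 14 such neighbours 12 were kept, and 0 were at least 2-fold lower or higher in the Hikeshi cKO library once 1 CPM was added to each value. Without the added value the low genes Slc7a14, with 4 reads in the Hikeshi cKO library and 20 in the wild-type library, and Myrip, with 16 in the Hikeshi cKO library and 38 in the wild-type library, were further apart than that. On the scale with 1 CPM added the log2 differences ran from -0.77 to 0.20, with a median of -0.16. Tmem258, 0.447 kb from Myrf, had 805 reads in the Hikeshi cKO library and 775 in the wild-type library, and Zfp236, 7.96 kb from Mbp, had 969 in the Hikeshi cKO library and 907 in the wild-type library. Usf2, 30.3 kb from Mag, had 1613 reads in the Hikeshi cKO library and 1650 in the wild-type library.

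Few relatives of Cldn11 and Mag passed the filter. Of 11 other claudin genes listed 3 were kept, Cldn12, Cldn1 and Cldn10, and Cldn10 was the 1 at least 2-fold lower. Cldn12 was well read, at 99.0 CPM in the Hikeshi cKO library and 82.3 CPM in the wild-type library, above Cldn11 itself. Mag belongs to the Siglec family, and 0 of its 3 other listed members were kept.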
